A study of Mus musculus with 7 samples.

Results

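The platelet-derived growth factor (PDGF) family was followed in muscle stem cells, called satellite cells, of geriatric and young mice. Its members were the receptor genes Pdgfra and Pdgfrb, the receptor-like gene Pdgfrl and the ligand genes Pdgfa, Pdgfb, Pdgfc and Pdgfd. Every probe of the array that carried one of these 7 names, among 36406 gene names, was taken, which gave 9 of 55681 probes other than controls. The family was chosen by the measured Pdgfrb signals, which were higher in geriatric cells, so that difference is a description and supports nothing further. RNA came from male C57BL/6 mice, with 4 geriatric arrays at ages of 28, 28, 29 and 30 months and 3 young arrays at ages of 2, 2 and 3 months. Cells were sorted from dissociated muscle for integrin α7 and CD34 and against CD31, CD45, CD11b and Sca1, their RNA was amplified by a protocol for very small cell numbers, and each sample was hybridised to a 1-colour array. Geriatric arrays 1 and 2 bore a single sample name in the descriptions, correlated at r = 0.992 across tested probes where other pairs of arrays correlated at 0.914 to 0.954, and entered as their mean, which left 3 geriatric and 3 young samples. The titles name geriatric arrays 1 and 2 biological replicates 1 and 2 instead, so the labels conflict. The sources used here do not say whether RNA of 1 mouse or of several went into a sample. Errors and p-values therefore describe only how these samples spread, which may be technical, although every title says biological replicate.

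PDGFs are secreted dimers that bind and pair receptor tyrosine kinases at the cell surface. The alpha receptor binds the A, B and C chains and the beta receptor binds the B and D chains, and the C and D chains become active only after a protease removes their CUB domain. In muscle the alpha receptor is best known as a marker of fibro-adipogenic progenitors, which are stromal cells, and the beta receptor as a marker of pericytes and other cells of the vessel wall, and both are also made by fibroblasts.

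Pdgfa and Pdgfb were each read by a pair of probes, and the first 30 of the 60 bases of each are shown because the pairs behaved differently. Capitals mark the bases that both Pdgfa probes share, which continue for 51 bases in all.
Pdgfa probe A_55_P2007470: actgtagcaCTCAGAGAGACAGTGAGAAAG
Pdgfa probe A_55_P2125588: CTCAGAGAGACAGTGAGAAAGCTTCCTTGT
Pdgfb probe A_55_P1974441: actccaggctgcaggcttctcttgactcca
Pdgfb probe A_55_P2047310: gttccttctgcttccttcagtttgtaaagt
The Pdgfa probes lie on the reverse strand at chr5:139452934-139452993 and chr5:139452925-139452984 of mm9, so they are nearly the same measurement. The Pdgfb probes, also on the reverse strand, lie at chr15:79827438-79827497 and chr15:79826376-79826435, with 1002 bases between them and no shared run longer than 5 bases.

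Of the 7 genes, 5 were well above background on all 7 arrays, namely Pdgfrb, Pdgfrl, Pdgfa, Pdgfb and Pdgfc. Pdgfd passed that mark on 1 array and Pdgfra on none. Pdgfrb has a single probe, on the forward strand of mm9 at chr18:61244606-61244665, and its bases are not shown. Levels below are either processed signals in intensity units or log2 of that signal relative to the array's 75th percentile, and differences are geriatric minus young on the log2 scale. A probe was tested if it was well above background on at least 3 arrays, which 7 of the 9 probes were. The measured values of every probe are drawn array by array.

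**Figure D1:**
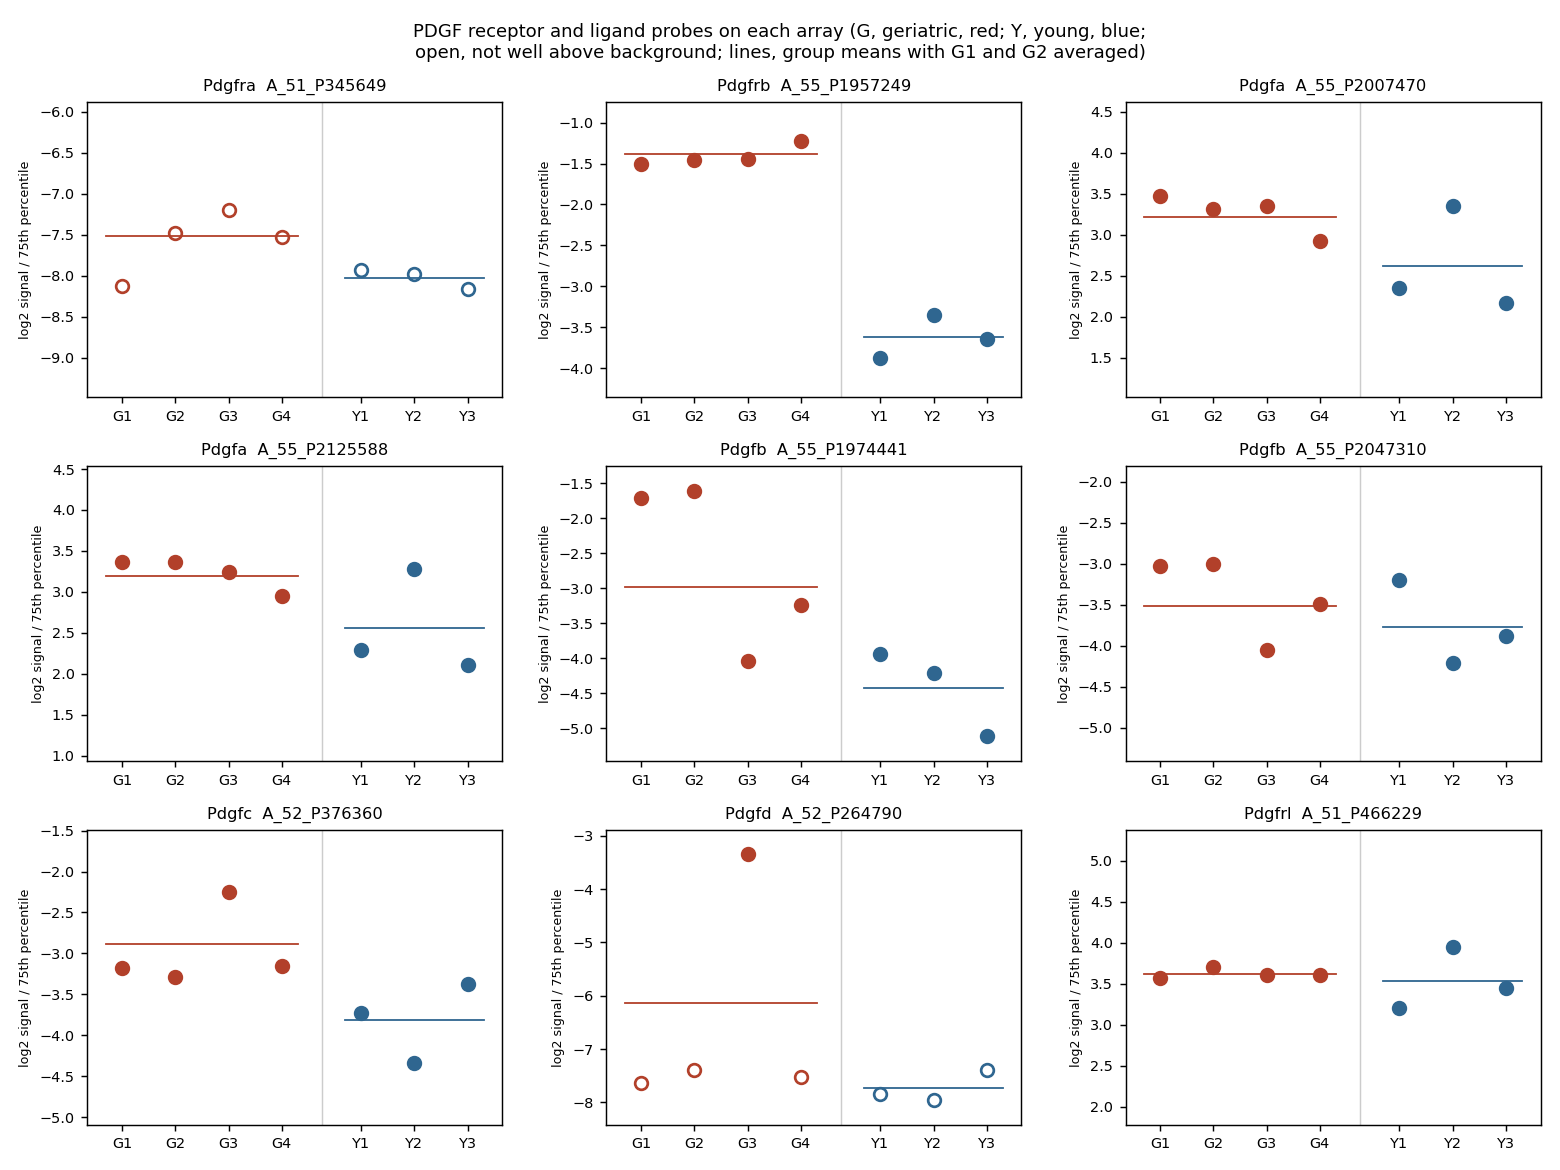
Log2 processed signal relative to the 75th percentile (y axis, a separate range for each panel) of the 9 probes on geriatric arrays G1 to G4 (red) and young arrays Y1 to Y3 (blue). Open points were not well above background, and lines are group means with G1 and G2 averaged. The geriatric points of Pdgfrb lie between -1.51 and -1.22 and the young points between -3.88 and -3.35, and Pdgfd has 1 filled point.

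Pdgfrb, the beta receptor, was higher on every geriatric array. Its processed signal was 555, 519, 580.2 and 570.2 intensity units on geriatric arrays 1 to 4, against 98.2, 150.2 and 129 on young arrays 1 to 3. The scanner's error of a single array was 52.4 to 59.0 units for geriatric arrays and 11.4 to 16.1 for young arrays, which covers measurement on 1 array and not the spread between samples. On the log2 scale Pdgfrb was at -1.38 ± 0.14 in geriatric cells and -3.62 ± 0.27 in young cells (SD, n = 3 each), a difference of 2.24 or 4.71-fold. The arrays of the averaged geriatric sample differed by 0.06, and the geriatric samples covered a narrower range than the young ones. In the authors' value table, whose background correction is not known here, the log2 values were 9.24, 9.28, 9.26 and 9.47 on the geriatric arrays and 7.50, 7.83 and 7.62 on the young arrays, which is a difference of 1.68. With normexp background correction the difference was 1.75. The groups did not overlap in the authors' values either, and what made the difference smaller in these settings was not tested.

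Pdgfra, the alpha receptor, was not detected above background. Its probe was printed as 10 spots on each array, at chr5:75593888-75593947 on the forward strand, and 0 of these spots were well above background on any array. The mean signal over spots was 5.69, 7.98, 10.8 and 7.19 intensity units on geriatric arrays and 5.93, 6.06 and 5.62 on young arrays. The lowest signal of any probe well above background was 21.4 to 35.2 units across the 7 arrays, so these values give only an upper limit and no fold. The first 30 bases of the probe are shown, since the statement on Pdgfra rests on this sequence alone.
Pdgfra probe A_51_P345649: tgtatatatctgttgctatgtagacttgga

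Pdgfrl encodes a receptor-like protein related to the receptors' extracellular part that lacks a kinase domain. It gave strong signals in both groups, 18871, 18483, 19336 and 16272 units on geriatric arrays and 13303, 23670.4 and 17509 on young arrays. The geriatric samples fell within the range of the young ones. Its log2 level was 3.62 ± 0.016 in geriatric cells and 3.53 ± 0.38 in young cells (SD, n = 3 each), a difference of 0.09 (SE 0.24, limma adjusted p = 0.966). Without young replicate 1 the difference was -0.078. Its probe lies at chr8:42075859-42075918 on the forward strand.

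Among the ligands, Pdgfa gave the same picture on both of its probes. Probe A_55_P2007470 read 17619.8, 14133, 16165 and 10070.2 units on geriatric arrays and 7376, 15532 and 7204 on young arrays. Young replicate 2 lay among the geriatric values, and the groups overlapped. The log2 level was 3.22 ± 0.26 in geriatric cells and 2.62 ± 0.64 in young cells (SD, n = 3 each), a difference of 0.60 (SE 0.36, adjusted p = 0.794), and the overlapping probe gave 0.63 (SE 0.35, adjusted p = 0.781). Without young replicate 2 these differences were 0.97 and 0.99, and without young replicate 3 they were 0.37 and 0.40. Young replicate 2 was also the highest young sample for Pdgfrl and Pdgfrb, but the lowest for Pdgfc and for Pdgfb probe A_55_P2047310.

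Pdgfb was read differently by its pair of probes. Probe A_55_P1974441 read 484 and 466 units on the arrays of the averaged geriatric sample, 96.4 and 141 on geriatric arrays 3 and 4, and 93.9, 82.6 and 46.5 on young arrays. On the log2 scale only the averaged geriatric sample and geriatric replicate 4 exceeded all young samples. Geriatric replicate 3, at -4.04 on that scale, lay below young replicate 1, at -3.94, although its unscaled signal was higher. Its difference was 1.44 (SE 0.67, adjusted p = 0.720), and 0.78 without the averaged geriatric sample. Probe A_55_P2047310 read 194, 178, 95.6 and 118 units on geriatric arrays and 157, 82.2 and 109 on young arrays, so that the groups overlapped. Its difference was 0.25 (SE 0.38, adjusted p = 0.930), and -0.0040 without the averaged geriatric sample. Both probes were highest in the averaged geriatric sample, by much more on the first, and its arrays differed by 0.10 and 0.03 on the log2 scale. Which probe follows the gene more faithfully was not tested.

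Pdgfc, a ligand of the alpha receptor, was higher in every geriatric sample than in any young sample. Its probe (chr3:81017572-81017631, forward strand) read 174, 145, 334 and 149 units on geriatric arrays and 110, 75.5 and 155 on young arrays. By unscaled signals of single arrays the groups overlapped, since young array 3 read higher than geriatric arrays 2 and 4. The log2 level was -2.88 ± 0.55 in geriatric cells and -3.81 ± 0.49 in young cells (SD, n = 3 each), a difference of 0.93 (SE 0.38, adjusted p = 0.680). Without geriatric replicate 3, the highest sample, the difference was 0.62.

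Pdgfd, a ligand of the beta receptor, was well above background on geriatric array 3 alone. There its signal was 155 units with a scanner error of 19.1. The other geriatric arrays read 7.94, 8.46 and 7.23 units, and the young arrays read 6.27, 6.13 and 9.52. The gene therefore has a level in 1 sample of 6 and only an upper limit elsewhere, and it was not tested. The sample that held it, geriatric replicate 3, also had the highest Pdgfc value. The start of its probe (chr9:6376926-6376985, forward strand) is given because the value rests on this probe.
Pdgfd probe A_52_P264790: gaaggggcaaagctaagaatatggctcttg

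Taken over the tested probes, 7 of 7 had a positive difference, while none passed the threshold. With limma over all 41247 tested probes, 6 probes or 0.0145% passed an adjusted p of 0.05, with 1 higher (0.00242%) and 5 lower (0.0121%) in geriatric cells, and 0 of the 7 probes of the family did. Over genes by their brightest probe 0.0256% passed. At an unadjusted p under 0.05 the family had 0 of its 6 tested probes other than Pdgfrb, against 7.32% of all tested probes. Groups did not overlap in 1 of those 6, the Pdgfc probe, against 12.8% of all tested probes in either direction and 6.93% with geriatric cells higher. The pairs of probes for Pdgfa and Pdgfb are not independent, and the positive signs of 7 probes stand for 5 genes of which 1 was chosen for its sign. The median difference over all tested probes was -0.0071.

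**Figure D2:**
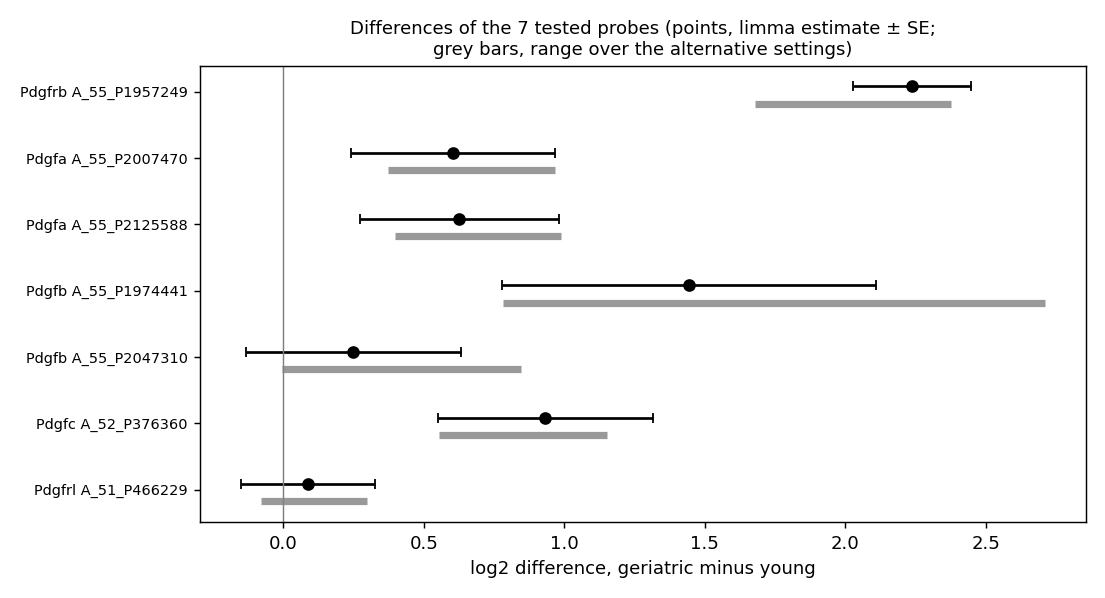
Log2 difference, geriatric minus young, of the 7 tested probes (points, limma estimate with its SE) with the range over the alternative settings as grey bars. Pdgfrb stays between 1.68 and 2.37, while the bars of the second Pdgfb probe and of Pdgfrl reach below 0.

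When geriatric replicates 1 and 2 were counted as separate samples, the Pdgfrb probe was among 103 probes that passed, and with them averaged it was not among the 6. The larger count treats arrays of 1 named sample as replicates, as their titles do. The Pdgfrb difference was 2.11 to 2.37 when each array or sample was left out in turn. The probe was chosen for its difference on these same arrays, so this narrow range is a description and not a test. Within the arrays of the first row by their descriptions, which held the 3 young arrays and geriatric array 1, the difference was 2.11.

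The named genes whose profile over the 6 samples lay nearest to that of Pdgfrb were Xdh, Zmat1, Tmem229a, Gabra3 and Sult5a1. Nearness was the root mean square difference of log2 levels, each centred on its own mean, over 12461 named genes well above background on every array. It was 0.25 for Xdh, which encodes xanthine dehydrogenase, an enzyme of purine degradation, and 0.35 for Sult5a1, a gene of the sulfotransferase family, against a median of 1.17 over the genes compared. Zmat1 encodes a zinc finger protein, Tmem229a a transmembrane protein and Gabra3 a subunit of the GABA-A receptor. Their differences were 2.43 for Xdh, 1.86 for Zmat1, 1.91 for Tmem229a, 1.63 for Gabra3 and 2.02 for Sult5a1. These genes were picked for likeness to a profile that had itself been picked, and no test applies. Of the 5, 3 were again among the nearest 5 with normexp background correction and 2 with the authors' values.

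**Figure D3:**
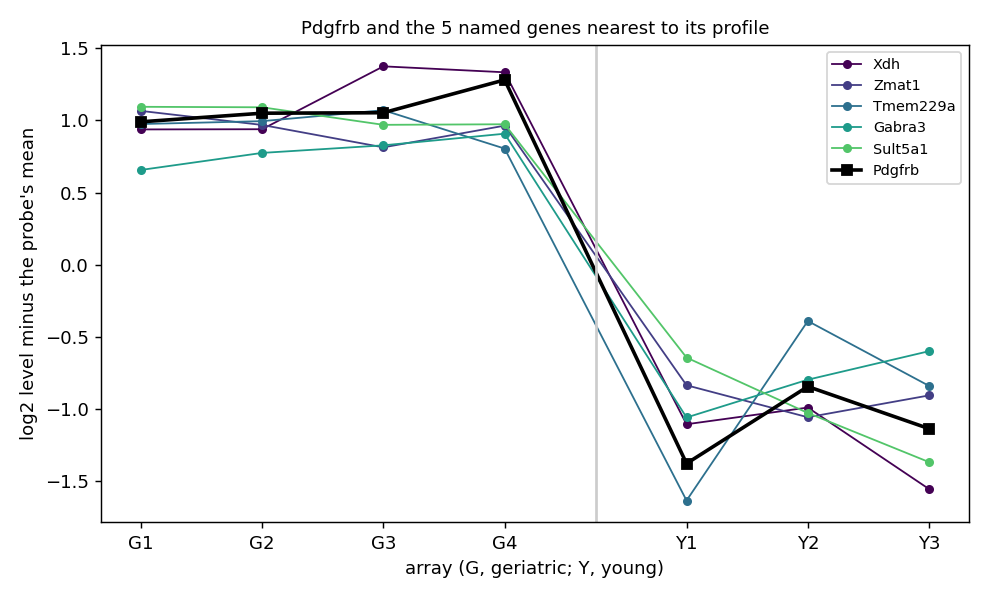
Log2 level minus the probe's own mean on geriatric arrays G1 to G4 and young arrays Y1 to Y3, for Pdgfrb (black squares) and the 5 named genes nearest to it. All 6 lie above their mean on every geriatric array and below it on every young array.

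Most lists of genes around the receptors held members higher and members lower in geriatric cells in similar numbers. Of the proteins that activate, bind or present PDGFs, 9 of 12 were tested, 4 higher and 5 lower in geriatric cells, with 0 passing and a median difference of -0.0019 (-0.098 without geriatric replicate 3, 0.050 without the averaged geriatric sample). Thbs2, the matrix protein thrombospondin 2, was at 2.65 ± 0.23 in geriatric and 1.57 ± 0.25 in young cells (SD, n = 3 each), a difference of 1.08 (SE 0.22, adjusted p = 0.339). Nrp1, the co-receptor neuropilin 1, differed by 1.39 (SE 0.65, adjusted p = 0.727) and Lrp1, an endocytic receptor that binds the beta receptor, by -0.26 (SE 0.25, adjusted p = 0.883). Of the adaptors, kinases and GTPases that carry the signal inward, 31 of 34 were tested, 14 higher and 17 lower, with 0 passing and a median of -0.12, which ranged from -0.18 without young replicate 3 to 0.02 without young replicate 2. Sos1, an exchange factor that activates Ras, was well above background on 4 geriatric and 0 young arrays and was at least 2.80-fold higher. It met the filter only through geriatric arrays, so its sign is not a result and no p is given. Sos1 is still counted among the 14 higher and in the median of its list. Its paralogue Sos2 differed by -0.54 (adjusted p = 0.769) and Fyn, a Src family kinase, by 0.61 (adjusted p = 0.737).

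Phosphatases, ubiquitin ligases and Sprouty proteins that damp the receptors gave 17 tested members of 18, 8 higher and 9 lower, with 0 passing and a median of -0.0069 (-0.21 without geriatric replicate 3, 0.13 without young replicate 2). Their smallest unadjusted p-values belonged to Ptpn2, Ptprk and Spry2. Ptpn2, a tyrosine phosphatase that acts on the beta receptor, differed by -0.40 (adjusted p = 0.734), and by -0.82 on its other tested probe. Ptprk, a receptor-type phosphatase, differed by 0.63 (adjusted p = 0.737) and Spry2 by 1.56 (adjusted p = 0.790). Early genes that PDGF induces in cultured fibroblasts, and that dissociation of tissue also induces, had 17 tested members of 18, 15 higher and 2 lower, with a median of 0.15. None of them passed and 1 had an unadjusted p under 0.05, namely Ier3 (1.04, SE 0.41, adjusted p = 0.674). Klf6 differed by 0.51 (adjusted p = 0.841), Ccl2, a monocyte chemokine, by 0.34 (adjusted p = 0.760), Fos by 0.09 and Egr1 by 0.13. The median of these early genes ranged from -0.0055 (young replicate 3 left out) to 0.26 (geriatric replicate 4 left out). Over all 27391 tested genes 12.8% did not overlap between groups, 49.6% had a positive difference, and the median was -0.0030.

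**Figure D4:**
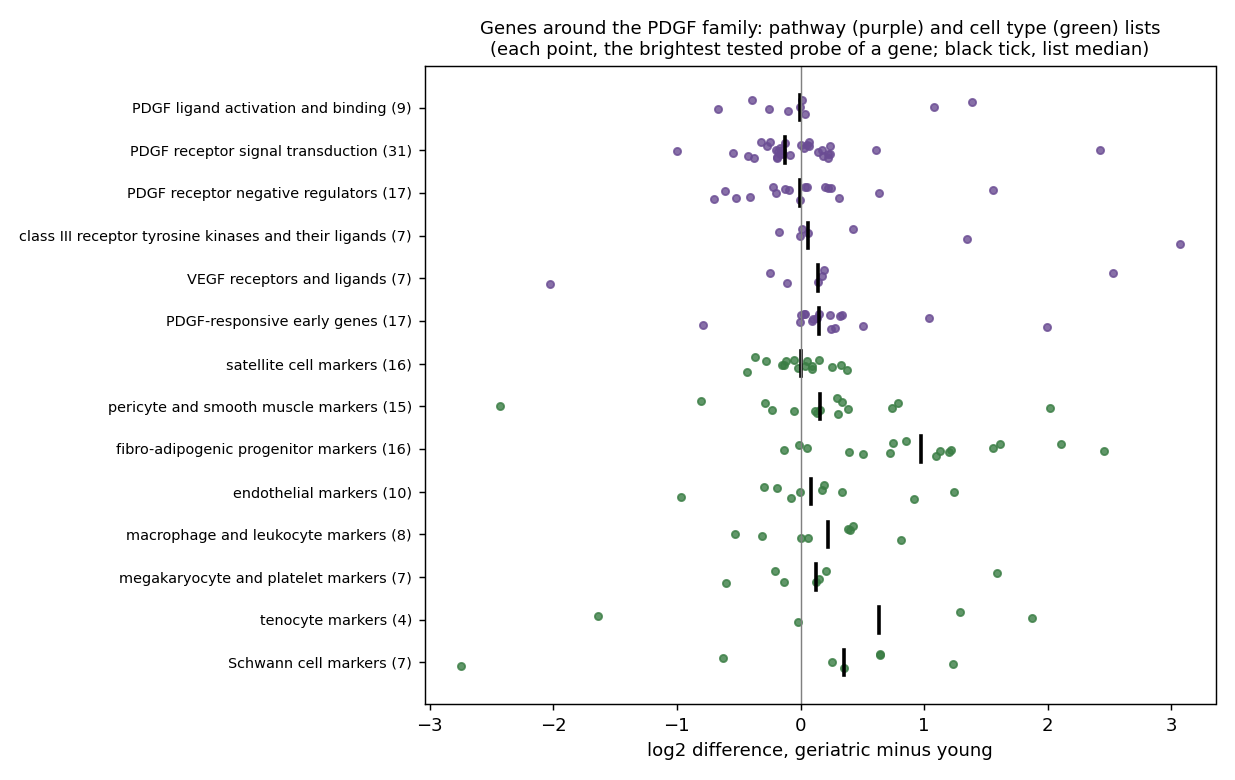
Log2 difference, geriatric minus young, of each tested gene (points, brightest tested probe) in the 6 pathway lists (purple) and 8 cell type lists (green), with the list median as a black tick and the number tested in brackets. Medians of the pathway lists lie between -0.12 and 0.15, and the fibro-adipogenic list has its median at 0.98.

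The sorted cells carried the markers of their label. All 16 satellite cell markers were well above background on all 7 arrays, with 8 higher and 8 lower in geriatric cells, 0 passing and a median of 0.0075 (-0.079 without young replicate 3, 0.062 without young replicate 2). Pax7, the transcription factor of satellite cells, was at 4.11, 4.11, 4.36 and 3.92 on the log2 scale on geriatric arrays and 4.09, 4.46 and 3.72 on young arrays. Cd34 differed by 0.09 and Itga7, the gene of the sorted integrin, by -0.44 (adjusted p = 0.720). Sdc3, the proteoglycan syndecan 3, differed by 0.37 (adjusted p = 0.764) and Heyl, a Notch target, by -0.37 (adjusted p = 0.783). In RNA of a whole sorted population, more cells of a type and more RNA per cell cannot be told apart, so Pdgfrb was set beside the markers of the cells that are known to make it.

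Pericyte and smooth muscle markers had 15 of 17 tested, 10 higher and 5 lower, with 0 passing and a median of 0.16, which ranged from -0.0089 without young replicate 3 to 0.32 without the averaged geriatric sample. Their summed level, in multiples of the 75th percentile, was 139.8 to 171 on geriatric arrays and 141 to 165 on young arrays, and the groups overlapped. Such a sum, here and for the lists below, is set mostly by bright genes. In this list Notch3 had a mean log2 level of 5.45 in geriatric and 5.15 in young cells. Dim markers such as Rgs5 add little to the sum, so it cannot show a change in them. Of the defining markers, Rgs5 was at -8.19, -4.90, -3.00 and -2.85 on geriatric arrays, the first of them not well above background, and at -3.79, -3.08 and -3.10 on young arrays. Cspg4, the NG2 proteoglycan, was at -0.93 ± 0.02 in geriatric and -1.31 ± 0.18 in young cells (SD, n = 3 each), a difference of 0.39 (SE 0.18, adjusted p = 0.714). Acta2, smooth muscle actin, differed by -0.23 (adjusted p = 0.927), and Kcnj8 was well above background on 1 geriatric and 2 young arrays. The members with the smallest unadjusted p were Steap4, a metalloreductase (2.02, SE 0.50, adjusted p = 0.427), and Vtn, vitronectin (0.74, SE 0.27, adjusted p = 0.635).

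Fibro-adipogenic markers were mostly higher, as Pdgfrb was. Of 16 tested, 14 were higher in geriatric cells, 7 had an unadjusted p under 0.05 and 6 did not overlap between groups, but 0 passed. Over all tested genes 49.6% were higher and 12.8% did not overlap in either direction, and 7.32% of all tested probes had an unadjusted p under 0.05. The list's median was 0.98, and 0.61 without geriatric replicate 4. For geriatric array 1 against the young arrays it was 0.42. The array row as a block compares only these arrays, since the other row held only geriatric arrays. Its summed level was 54.2 to 68.2 on geriatric arrays and 39.0 to 50.9 on young arrays, without overlap. Osr1, a transcription factor of these progenitors, differed by 1.61 (SE 0.26, adjusted p = 0.241), Lox, a collagen cross-linking enzyme, by 2.10 (SE 0.46, adjusted p = 0.366), and Col15a1, a basement membrane collagen, by 1.20 (SE 0.28, adjusted p = 0.396). The other tested probe of Lox gave 0.91. The 6 genes without overlap, Osr1, Lox, Col15a1, Dpt, Col1a2 and Mfap5, were above every young array on each geriatric array. Osr1 was at -1.86, -2.04, -2.64 and -2.66 on geriatric arrays and -4.23, -3.90 and -3.95 on young arrays. Of the defining markers, Dcn, the proteoglycan decorin, was at 2.49, 2.60, 4.37 and 4.32 on geriatric arrays and 2.47, 2.56 and 1.54 on young arrays, so it was high in geriatric replicates 3 and 4, and the averaged geriatric sample lay within the young range. Ly6a, the gene of the excluded antigen Sca1, was at -6.52, -6.52, -3.16 and -2.47 on geriatric arrays and -5.09, -6.65 and -4.06 on young arrays, and was well above background on 2 arrays of each group. Pi16 differed by 0.51 (adjusted p = 0.794), and Pdgfra, which defines these cells, was above background on none. The part of stromal or vessel-wall cells in the Pdgfrb difference was not tested.

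**Figure D5:**
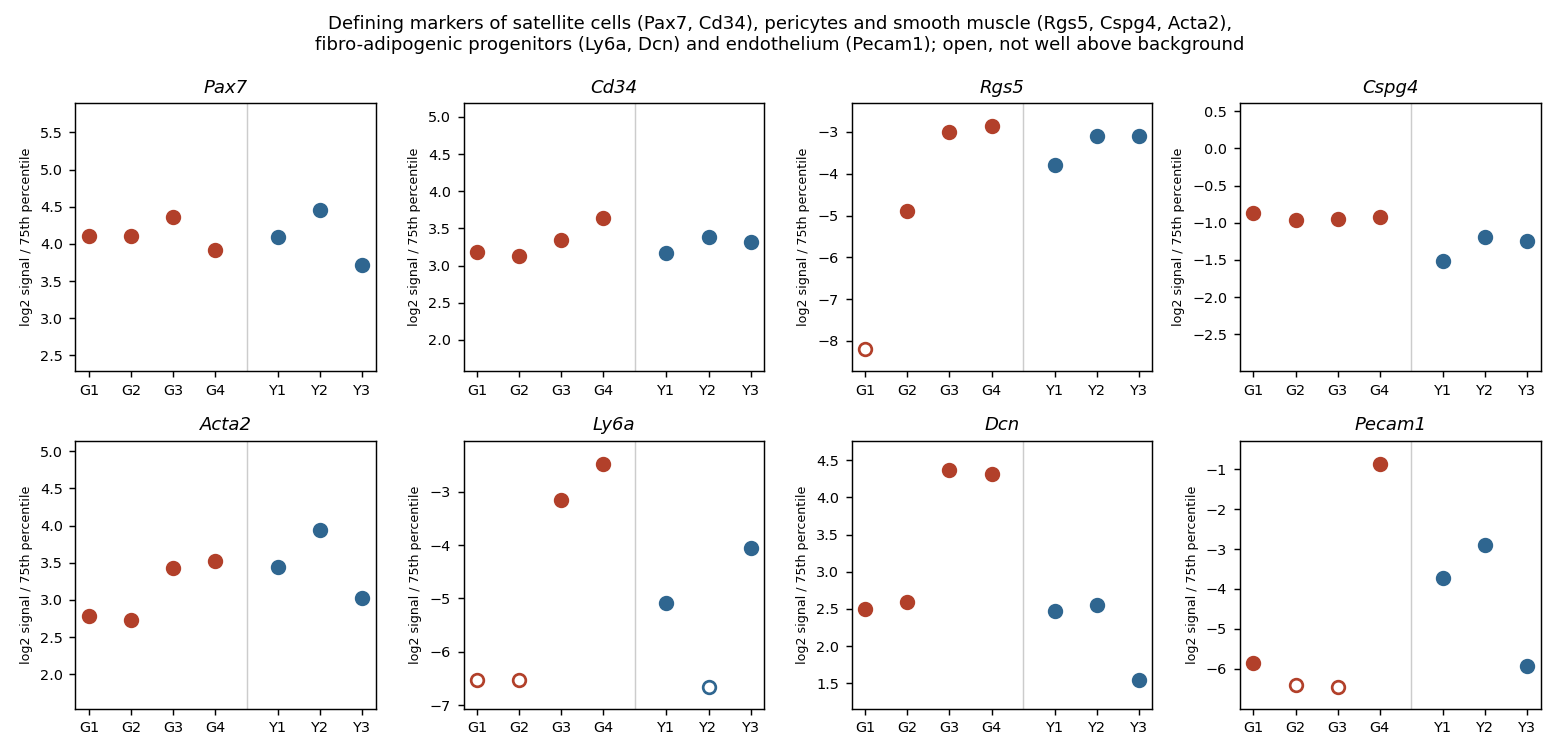
Log2 processed signal relative to the 75th percentile (y axis, a separate range for each panel) of 8 defining markers on geriatric arrays G1 to G4 and young arrays Y1 to Y3, open where not well above background. Dcn and Ly6a are high on G3 and G4 but not on G1 and G2, Rgs5 is not well above background on G1, and Pecam1 is highest on G4.

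Endothelial cells and platelets are the best known sources of PDGF-B, so their markers were set beside Pdgfb. Endothelial markers had 10 of 12 tested, 5 higher and 5 lower, with 0 passing and a median of 0.08. Leaving out geriatric replicate 4 gave -0.46, and leaving out geriatric replicate 3 gave 0.47. Pecam1, the gene of the excluded antigen CD31, was at -5.86, -6.40, -6.44 and -0.86 on geriatric arrays and -3.72, -2.90 and -5.92 on young arrays, and Cdh5, VE-cadherin, was well above background on 2 geriatric and 0 young arrays. Eng, an endothelial co-receptor, was at -0.32, -0.41, -1.25 and -1.54 on geriatric arrays and -2.00, -2.44 and -1.46 on young arrays, a difference of 0.91 (adjusted p = 0.704). Cd93 differed by 1.24 (adjusted p = 0.778) and Esam, an adhesion molecule, by -0.97 (adjusted p = 0.886). The summed level of the list was 16.1, 16.8, 11.4 and 14.8 on geriatric arrays and 12.3, 14.0 and 11.6 on young arrays. The sum and Eng were highest on geriatric arrays 1 and 2, as both Pdgfb probes were. The median level of the endothelial list, with each gene centred on its own mean, peaked elsewhere. This median was 1.39 on geriatric array 4, -0.30 on geriatric array 3 and -0.029 for the averaged geriatric sample. Young arrays 1 to 3 gave -0.28, 0.025 and 0.092. Pecam1 was also highest on geriatric array 4, and Cdh5 was well above background only on geriatric arrays 3 and 4. The part of endothelial cells in the Pdgfb values was not tested. Platelet markers had 7 of 10 tested, 4 higher and 3 lower, with 0 passing and a median of 0.12 (0.022 without the averaged geriatric sample, 0.21 without geriatric replicate 3), and Pf4, platelet factor 4, was below that mark on all 7 arrays. Of the platelet glycoproteins, Gp9 was well above background on 3 geriatric and 0 young arrays and at least 1.24-fold higher. Gp9 met the filter only through geriatric arrays, so its sign is not a result and no p is given. It is still counted among the 4 higher and in the median of the platelet list. Gp1ba differed by -0.60 (adjusted p = 0.832) and Gp1bb by 0.20 (adjusted p = 0.888). The summed level of the platelet list was 2.50 to 2.85 on geriatric arrays and 2.36 to 2.48 on young arrays, without overlap, as in some other lists. Macrophage and leukocyte markers had 8 tested, 6 higher and 2 lower, with 0 passing and a median of 0.22 (0.088 without young replicate 2, 0.44 without the averaged geriatric sample), and their summed level was 84.2 to 111 on geriatric arrays and 87.6 to 97.5 on young arrays. Ptprc, the gene of the excluded antigen CD45, differed by 0.38 (adjusted p = 0.872), the lipopolysaccharide co-receptor gene Cd14 by 0.81 (adjusted p = 0.695), the complement gene C1qb by 0.43 (adjusted p = 0.771) and Emr1, which encodes a macrophage surface receptor, by 0.40 (adjusted p = 0.868).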

How the data were processed

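The deposited processed signal is a spot intensity made by Feature Extraction (Agilent, version 10.7.3.1), per the file headers. Its settings there include spatial and multiplicative detrending and surrogates for dim spots. Mean signal and local background, used for normexp, are raw intensities, and spot flags were taken as deposited. The authors' value table holds log2 values, and its background correction and software are not given in the sources used here. No saturated probe was found.

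Each processed signal was put on the log2 scale and the array's 75th percentile (1330 to 1609 units), taken without controls, was subtracted. Spots marked as outliers, 124 to 229 per array, were dropped before averaging replicate spots, and a probe was called well above background on an array when at least 0.5 of its spots were. Of 55681 probes, 38044 to 41289 per array passed. The number of arrays limits the precision. Probes passing on 3 or more arrays with a value on all 7 were tested in limma 3.58.1 (R 4.3.3; files read by data.table, release 1.17.8; lmFit, eBayes, 2-sided, Benjamini-Hochberg over all 41247). Lists used each gene's brightest tested probe. For a probe below that mark on every array of one group, an "at least" fold replaces that group's values by the lowest signal above the mark on each array, where this is higher. The members, lists and rules were chosen with earlier results of these data known. In each list the 3 genes with the smallest p were named, with fixed defining markers, and values of further genes were added after they were seen. Gene names and coordinates are those of the array files (mm9). Alternatives covered background correction, normalization, the authors' values, the filter, averaging, leaving out samples, array row, the replicate block and several probes of a gene. The fit was tested on simulated data. Figures used matplotlib 3.10.9 in Python 3.11.15.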

Additional observations from a re-analysis of the deposited data

How the results depend on the processing

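The number of probes that passed limma's test was 6. It was 4 with normexp background correction (offset 50), 6 with quantile normalization, 2 with the authors' values, 0 with no filter on dim probes, 0 among probes well above background on all 7 arrays, 103 with geriatric replicates 1 and 2 as separate samples, 0 with the array row as a block and 7 within array row 1, where geriatric array 1 stood alone and was assumed to vary like the young arrays. It was 7 over genes, by the brightest probe or by the mean of a gene's probes. Leaving out samples gave 0 to 6, with 0 without young replicate 1, 2 or 3, geriatric replicate 3 or 4, or the averaged geriatric sample. Where the count was 0, 2451 to 4628 probes had an unadjusted p under 0.05. The number of family probes that passed was 0 in all of these except 1. There Pdgfrb passed with geriatric replicates 1 and 2 as separate samples, which counts arrays of 1 named sample as replicates, as their titles do. Pdgfrb was also chosen on these values, so its passing supports nothing.

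With the number in the descriptions as a replicate block the count was 0 (3170 at an unadjusted p under 0.05). Deviations of same-numbered samples correlated at -0.04, 0.03 and 0.04, and those of differently numbered samples at -0.10 to 0.07. The numbers thus gave no sign of pairing, but so few samples cannot exclude a small shared effect.

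The Pdgfrb difference of 2.24 was 1.68 to 2.37 over 19 alternatives, which describes its stability and is not a test. Its adjusted p-values are left out, since the probe was chosen on these values. With samples left out, Pdgfrl ranged from a reversed -0.078 without young replicate 1 to 0.30 without young replicate 2, and Pdgfb probe A_55_P2047310 from a reversed -0.0040 without the averaged geriatric sample to 0.53 without young replicate 1. Differences ranged from 0.37 to 0.97 and 0.40 to 0.99 for the Pdgfa probes, 0.78 to 2.71 for Pdgfb probe A_55_P1974441 and 0.55 to 1.15 for Pdgfc, whose lowest value came from the authors' values. Row 1 held the young arrays and geriatric array 1, and row 2 held only geriatric arrays. With the array row as a block, a difference is therefore that of geriatric array 1 from the young arrays. List medians were then 0.078 for signal transduction, -0.0042 for pericyte, -0.021 for endothelial, 0.019 for macrophage and 0.042 for platelet markers. These medians rest on 1 geriatric array, and the cause of the shifts was not tested. Nearness to background limits the values of Pdgfra and Pdgfd.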

Other observations

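Among relatives of the PDGF receptors, the class III receptor tyrosine kinases and their ligands had 7 tested members, 5 higher and 2 lower in geriatric cells, with 0 passing in limma and a median of 0.06 (0.0063 without the averaged geriatric sample, 0.25 without geriatric replicate 4, 0.42 with the array row as a block). Csf1, which encodes the macrophage growth factor M-CSF, was at 0.32 ± 0.45 in geriatric and -1.03 ± 0.26 in young cells (SD, n = 3 each), a difference of 1.35 (SE 0.29, adjusted p = 0.357). Its other tested probes, 2 in number, gave 0.31 and 0.59. Il34, the second ligand of the same receptor, differed by 3.07 (SE 1.18, adjusted p = 0.658), and Kitl, the ligand of Kit, by 0.42 (adjusted p = 0.874). VEGF receptors and ligands, which share the cystine-knot fold of the PDGFs, had 7 tested members, 4 higher and 3 lower, with 0 passing and a median of 0.14, which ranged from -0.11 without geriatric replicate 3 to 0.18 without the averaged geriatric sample. Flt1, a VEGF receptor, differed by 2.52 (SE 1.12). It passed the mark for background on 4 geriatric arrays and 1 young array. It thus met the filter only through geriatric arrays, and no p is given. Flt1 is still counted among the 4 higher and in the median, although its sign is not a result. Pgf, placental growth factor, differed by -2.03 (SE 1.14, adjusted p = 0.780) and Kdr by 0.14 (adjusted p = 0.916).

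Tenocyte markers had 4 tested members, 2 higher and 2 lower, with 0 passing and a median of 0.63 (0.39 without young replicate 1, 1.29 among probes well above background on all 7 arrays). Thbs4, thrombospondin 4, differed by 1.87 (SE 0.49, adjusted p = 0.474), Mkx by 1.29 (adjusted p = 0.656) and Comp by -1.64 (adjusted p = 0.672). Schwann cell markers had 7 tested members, 5 higher and 2 lower, with 0 passing and a median of 0.35 (0.56 without young replicate 3, 0.083 with the array row as a block). Mbp, myelin basic protein, differed by 1.24 (adjusted p = 0.736), Mag by 0.64 (adjusted p = 0.777) and Ngfr by -0.62 (adjusted p = 0.766).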
